A study of Mus musculus with 12 samples.

Results

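The regions described here are those at which the 3 Dnmt1 mutant samples disagreed while the 3 wild-type samples agreed. They were chosen from a table of methylation levels of 107115 candidate regions by 2 limits: the highest and lowest mutant levels differed by 25 percentage points or more, and the highest and lowest wild-type levels by 10 points or less. This left 279 regions, or 0.260% of the table, called mutant-variable regions below. The rule used the values of all 6 columns, so the levels, ranges and differences of these regions are given as descriptions and carry no test. Just inside the mutant limit lay regions whose nearest genes were Park7 at 3793 bp, Kif26a at 127390 bp and Rragc at 202745 bp, with ranges that rounded to 25 points, and just outside it regions of Map3k6, Ffar3 and Tmprss9 with 24.95, 24.93 and 24.91 points.

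DNA came from lineage-negative bone marrow progenitors, which are marrow cells depleted of cells bearing markers of mature blood lineages. The mutant group was labelled dnmt1-/- on the BALB/c strain, whereas the series describes a specific mouse mutation chosen from the structure of Dnmt1 proteins with hypomorphic missense changes in fish. The controls were wild-type BALB/c mice, and no treatment is listed for either group. Each genotype had 6 libraries, from 3 replicate numbers with a bisulfite kit and an enzymatic conversion kit each, and the table held 1 column per genotype and number. Age, sex, the number of animals and whether the columns of a genotype came from separate animals were not stated by the sources used here, so the spread between columns may be technical. The levels carry no read counts, and the depth behind them is unknown. No expression was measured in these libraries, so the cell type could not be checked against markers.

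Dnmt1 copies CpG methylation onto the newly made DNA strand after each round of replication. When copying is incomplete, cells of a clone lose methylation at different CpGs, and levels in a tissue drift to values between unmethylated and fully methylated. Some mouse loci, such as promoters of germline genes, imprinted control regions and certain retrotransposon copies, depend closely on maintained methylation, and a few retrotransposon copies are known to differ in level between genetically identical mice.

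Of the 18 mutant-variable regions at promoters, meaning at most 1 kb from an annotated start of a protein-coding gene, 4 are shown by sequence. In each of the 4 the region covered at least 217 of the 300 bases of the window, and the gene is described below. The Hoxa5 window, of which the region covered 182 bases, holds 29 CpGs and is not shown. Each line gives 250 bases before to 50 after the annotated start, 5′ to 3′ on the strand of the gene, from RefSeq on GRCm38.p6. A gene can have more than 1 annotated start, with 21263 starts over 17492 protein-coding genes. The start used for Crocc lies inside the gene, since candidate regions upstream of it, up to 141059759, also overlapped Crocc. Whether the starts used for the other genes are their first was not checked. Capitals mark the CpGs that lie inside the mutant-variable region, for Tex19.1 the one with the wider range. The table gives 1 level per region, so which of these CpGs differed between samples is not known. The windows are chr11:121145893-121146192 (plus strand) for Tex19.1, chr9:50561219-50561518 (minus strand) for Tex12, chr4:141053612-141053911 (minus strand) for Crocc and chr10:119819139-119819438 (plus strand) for Grip1.
Tex19.1: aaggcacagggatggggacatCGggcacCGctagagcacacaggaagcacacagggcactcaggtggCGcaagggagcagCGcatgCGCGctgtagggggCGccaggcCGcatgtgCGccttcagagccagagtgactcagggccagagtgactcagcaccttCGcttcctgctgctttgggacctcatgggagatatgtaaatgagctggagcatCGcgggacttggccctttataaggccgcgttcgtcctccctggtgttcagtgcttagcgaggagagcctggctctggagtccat
Tex12: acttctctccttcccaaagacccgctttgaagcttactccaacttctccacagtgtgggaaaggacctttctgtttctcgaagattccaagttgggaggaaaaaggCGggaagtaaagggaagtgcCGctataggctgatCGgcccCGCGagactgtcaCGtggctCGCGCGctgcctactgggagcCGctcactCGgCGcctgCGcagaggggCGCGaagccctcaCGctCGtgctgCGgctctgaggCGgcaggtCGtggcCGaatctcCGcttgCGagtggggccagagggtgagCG
Crocc: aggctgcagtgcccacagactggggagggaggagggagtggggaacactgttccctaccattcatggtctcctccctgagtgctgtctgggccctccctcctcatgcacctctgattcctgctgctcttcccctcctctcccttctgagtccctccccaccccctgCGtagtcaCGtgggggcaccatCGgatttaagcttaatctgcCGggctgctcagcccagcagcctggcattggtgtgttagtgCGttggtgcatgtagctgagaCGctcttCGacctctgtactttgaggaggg
Grip1: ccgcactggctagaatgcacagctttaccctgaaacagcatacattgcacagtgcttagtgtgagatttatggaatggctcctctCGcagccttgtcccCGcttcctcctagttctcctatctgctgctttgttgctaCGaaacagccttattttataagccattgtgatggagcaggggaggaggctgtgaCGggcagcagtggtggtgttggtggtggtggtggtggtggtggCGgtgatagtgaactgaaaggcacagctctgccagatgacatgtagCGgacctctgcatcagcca

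The windows hold 16, 26, 7 and 7 CpGs in this order, of which 11, 24, 7 and 6 are in capitals. At Tex19.1, 4 more of the CpGs, in lower case here, lie in the adjoining mutant-variable region. The median over 21263 promoter windows of protein-coding genes was 13 CpGs (quartiles 4 and 24), and 95.4% of them held at least 1 CpG, searched as CG, which reads the same on both strands. Tex12 thus lies above the upper quartile, Tex19.1 above the median, and Crocc and Grip1 between the lower quartile and the median.

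Over the 279 regions the mean level was 45.2%, 52.8% and 57.4% in mutant replicates 1, 2 and 3, against 77.8%, 78.8% and 78.1% in wild-type replicates 1, 2 and 3. Mutant samples averaged 51.8% ± 6.16 and wild-type samples 78.2% ± 0.559 (SD, n = 3 each), so the mutant minus wild type was -26.4 points. Over all candidate regions mutant samples averaged 60.5% ± 2.26 and wild-type samples 78.5% ± 0.357 (SD, n = 3 each), which is -18.0 points. In bulk DNA, fewer cells with a methylated region and fewer methylated CpGs per cell cannot be told apart. The median mutant range was 27.4 points in the mutant-variable regions, with a largest value of 53.6 points, and 7.11 points in all candidate regions. The median wild-type range was 6.0 points in the mutant-variable regions and 4.22 points in all candidate regions.

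**Figure D1:**
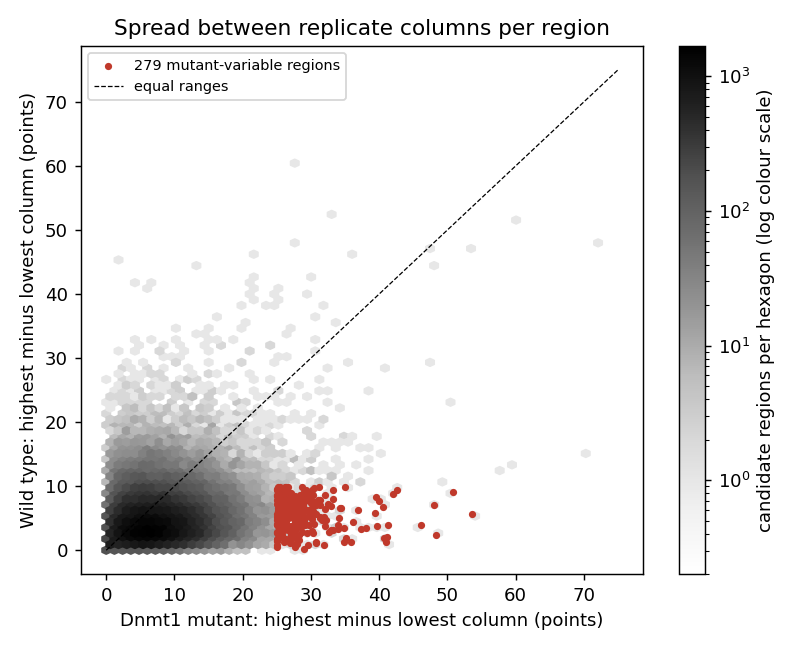
Each region's highest minus lowest level in points, in the Dnmt1 mutant (horizontal axis) and the wild type (vertical axis); grey hexagons count all 107115 candidate regions and red points are the 279 mutant-variable regions. The red points start at 25 points on the mutant axis, end at 53.6 and stay at or under 10 points on the wild-type axis, as the rule sets.

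The mirrored rule, with a wild-type range of 25 points or more and a mutant range of 10 points or less, found 53 regions, and 32 regions varied by 25 points or more in both genotypes. The share of regions with a wide range varied with the mean level in both genotypes. Of the candidate regions with a mutant mean of 40 to 50%, 1.03% had a mutant range of 25 points or more, and of those with a wild-type mean of 40 to 50%, 1.37% had such a wild-type range. At means of 50 to 60% these shares were 0.888% for the mutant and 1.01% for the wild type, and at 60 to 70% they were 0.416% and 0.568%. At 70 to 80% they were 0.115% and 0.0680%, at 80 to 90% 0.0170% and 0.00752%, and at 10 to 20% 0.510% and 1.21%. At 30 to 40% they were 1.28% and 1.16%, at 20 to 30% 1.12% and 1.28%, and at 0 to 10% 0.0548% and 0.0222%. The mutant share was thus the lower one at 10 to 30% and 40 to 70%. It was the higher one at 0 to 10%, 30 to 40% and 70 to 90%. Few regions stand behind some of these shares. At 80 to 90% they were 3 of 17696 in the mutant and 3 of 39915 in the wild type. At 0 to 10% they were 4 of 7301 and 1 of 4514, so the order in single bins is not read as a pattern. In all, 19852 candidate regions had a mutant mean of 40 to 60% and 4634 a wild-type mean in that interval. The median mutant-variable region had a mutant mean of 53.4% and a wild-type mean of 82.8%, and 133 of the 279 had a mutant mean between 40% and 60%. The bins share the same 6 columns and their unknown depth, and the part of the mean level in the spread was not tested.

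Most of the regions were lower in the mutant, as were most candidate regions. Every mutant column lay below every wild-type column in 231 of the 279 (82.8%), against 94.3% of all candidate regions, and every mutant column lay above every wild-type column in 1, in Adcy4, against 0.0952%. The mutant mean exceeded the wild-type mean in 10. The authors listed 204 of them (73.1%) as hypomethylated, against 33.1% of all candidate regions, and 0 as hypermethylated. Not all listed regions had a metilene q below 0.05. It was below 0.05 in 64 of the 204, and in 8273 of the 35439 hypomethylated and 4 hypermethylated regions listed. Listed regions had at least 20 points of difference, and the rule chose on the same levels, so nothing is read from the 73.1%. With limma on all candidate regions and Benjamini-Hochberg adjustment, 246 mutant levels (88.2%) were called lower and 2 higher, with an adjusted p below 0.05, against 93.5% and 0.0485% of all candidate regions. The spread within each genotype, which the rule set, enters this test, so nothing is read from those counts. The region within Adcy4, an adenylyl cyclase gene, and the region 25011 bp from Smad6 were the 2 called higher.

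Set beside all candidate regions, the mutant-variable regions differed mainly in how far the lowest mutant column had fallen. The lowest mutant column lay a median of 40.7 points under the wild-type mean, against 20.8 points over all candidate regions. The highest mutant column lay a median of 12.6 points under the wild-type mean in the mutant-variable regions and 12.6 points in all candidate regions. In 108 regions (38.7%) the highest mutant column was within 10 points of the wild-type mean or above it, against 35.7% of all candidate regions. In 19 regions (6.81%) a mutant column exceeded every wild-type column, against 1.08% of all candidate regions, and in 16 of these another mutant column lay under every wild-type column. Beside listed hypomethylated regions only, both ends differed. The highest mutant column lay a median of 16.1 points under the wild-type mean in the listed mutant-variable regions, against 22.0 in all listed ones. The lowest lay 44.4 points under it, against 30.9. These comparisons describe what the rule selects and carry no test.

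**Figure D2:**
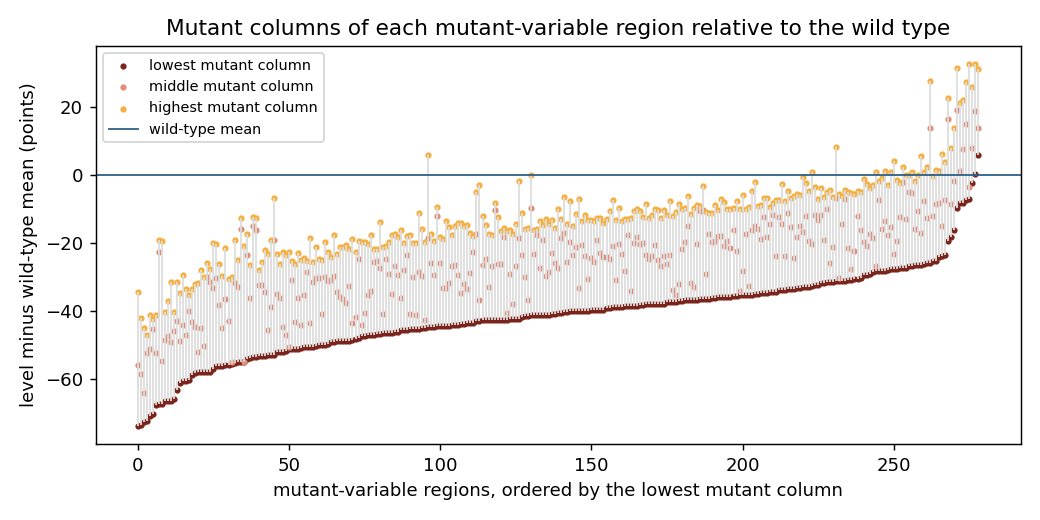
Level of the lowest, middle and highest mutant column minus the wild-type mean, in points, for the 279 mutant-variable regions ordered by the lowest column; the line at 0 is the wild-type mean. The highest column has a median of 12.6 points under that line and the lowest 40.7 points under it.

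The rule does not say which mutant replicate differs. Replicate 1 was the lowest in 174 regions and replicate 3 the highest in 168, which is 62.4% and 60.2%, against 59.7% and 58.0% of all candidate regions. The full order 1, 2, 3 from low to high held in 130 (46.6%), against 39.2% of all candidate regions, and the reverse order in 38 (13.6%), against 5.13%. The 3 values of a region were split at their larger gap, and the column alone on its side was taken as the one that stood apart. Replicate 1 stood apart in 132 regions (47.3%), of which 113 were on the low side. Replicate 3 stood apart in 108 (38.7%), with 71 on the high side and 37 on the low side, and replicate 2 in 39 (14.0%). Replicate 3 stood apart on the low side in 13.3% of the mutant-variable regions and in 5.54% of all candidate regions. Over all candidate regions replicate 1 was a median of 3.25 points below, and replicate 3 a median of 3.33 points above, the mean of the other mutant columns. With each column shifted so that the medians of a genotype's columns were equal, 211 regions met the rule and 124 of the 279 were among them.

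**Figure D3:**
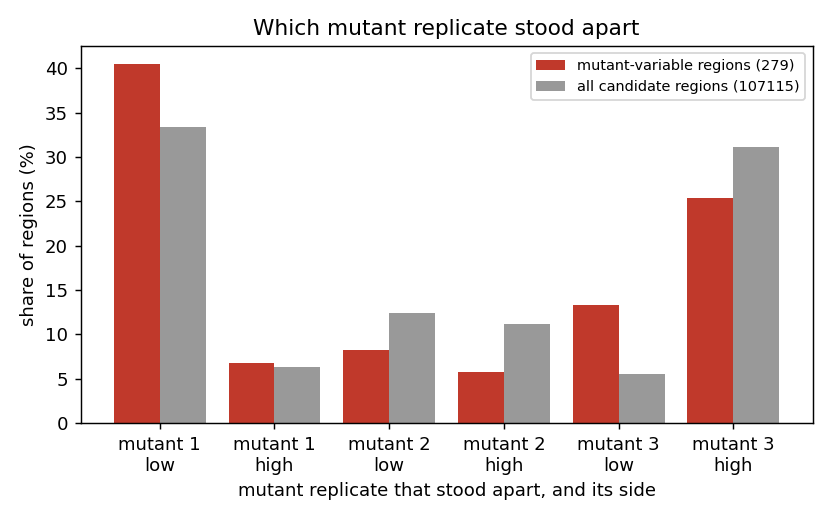
Share of regions, in percent, in which each mutant replicate stood apart on the low or the high side, for the 279 mutant-variable regions (red) and all 107115 candidate regions (grey). Replicate 1 low is the commonest case in both sets, and replicate 3 low is 13.3% of the mutant-variable regions and 5.54% of all.

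The widest range of the 279 lay in Dchs1, which encodes a large cadherin of the planar cell polarity system. This region (chromosome 7, 105762715 to 105762811, mm10) had levels of 82.7%, 68.8% and 29.1% in mutant replicates 1, 2 and 3, against 51.6%, 55.8% and 57.2% in the wild type. Mutant replicates 1 and 2 were above, and replicate 3 below, all wild-type samples. A second mutant-variable region of Dchs1 (105762189 to 105762301) had 71.8%, 57.2% and 41.4% in the mutant, against 50%, 53.7% and 45.1% in the wild type. Between them lay 2 candidate regions with mutant ranges of 47.6 and 70.8 points in which the wild type varied by 29.5 and 15.4 points, which kept them out by the rule. The mutant columns had the same order in all 4, and the candidate regions next to the run on either side had mutant ranges of 15.9 and 3.69 points.

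Irgc1, a gene of the immunity-related GTPase family, held 3 mutant-variable regions in a row, the longest run at gaps of up to 10 kb. The middle region (chromosome 7, 24432446 to 24433002) had 46 CpGs and levels of 68.5%, 72.0% and 23.8% in mutant replicates 1, 2 and 3, against 90.1%, 92.4% and 91.2% in the wild type. The region before it (24431993 to 24432416) had 78.9%, 76.2% and 37.8% in the mutant, against 91.0%, 90.9% and 92.1% in the wild type. The region after it (24433049 to 24433221) had 72.5%, 75.9% and 35.1% in the mutant, against 87.9%, 89.8% and 87.9% in the wild type. Mutant replicate 3 was the low sample in all 3, and every mutant value lay below every wild-type value. The candidate regions directly before and after the run had mutant ranges of 11.4 and 16.4 points.

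A pair of regions in Hoxc6, a homeobox transcription factor gene of the Hoxc cluster, had low levels in the wild type. The region at chromosome 15, 103009770 to 103010316, had 45.4%, 3.43% and 39.3% in mutant replicates 1, 2 and 3, against 19.8%, 19.9% and 28.5% in the wild type. The region at 103005425 to 103005641 had 50%, 8.77% and 37.5% in the mutant, against 17.2%, 19.3% and 18.8% in the wild type. In both, replicates 1 and 3 were above and replicate 2 below every wild-type sample. The next candidate region (103010616 to 103010854) had the same order, with 54.9%, 5.09% and 53.9% in the mutant and 27.7%, 16.8% and 16.9% in the wild type, and its wild-type range of 10.9 points kept it out.

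**Figure D4:**
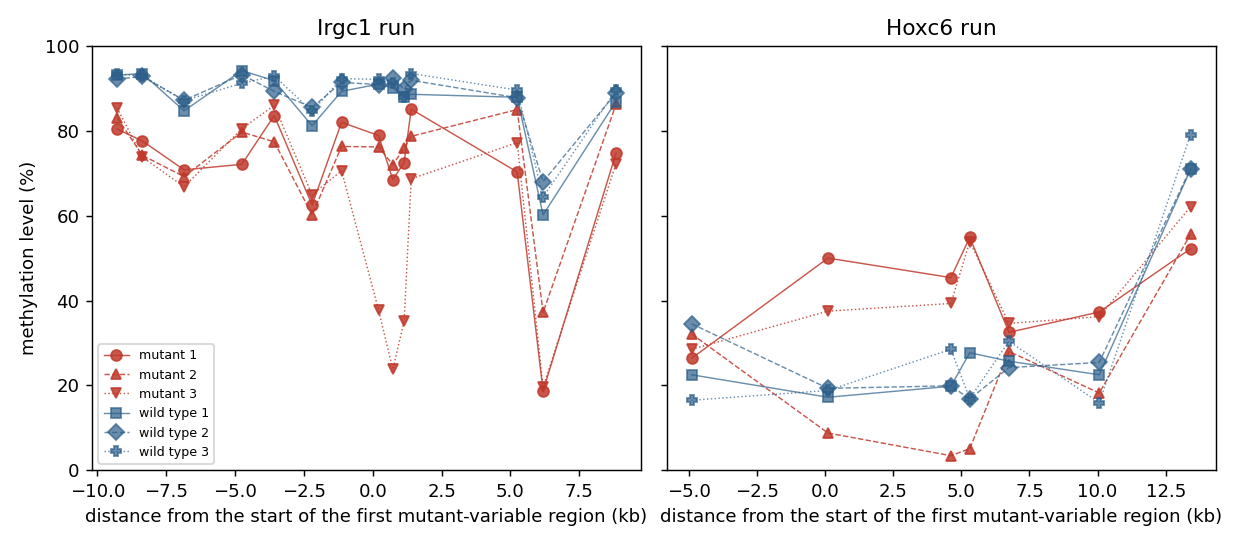
Methylation level in percent of every candidate region in and within 10 kb of the Irgc1 run (left) and the Hoxc6 run (right), plotted by the distance of its midpoint from the start of the first mutant-variable region; red lines are the 3 mutant replicates and blue lines the 3 wild-type replicates. Mutant replicate 3 drops to 23.8% in Irgc1, and in Hoxc6 mutant replicate 2 reaches 3.43% while mutant replicates 1 and 3 are above the wild type.

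On chromosome 4, a stretch from 140149193 to 141420124 held 12 mutant-variable regions among 423 candidate regions, at gaps of up to 500 kb. This gap was chosen after the data were seen, and the ends of the stretch are those of its own mutant-variable regions. Over all candidate regions 0.260% were mutant-variable. The stretch holds Padi2, which encodes an enzyme that converts arginine to citrulline in proteins, and Crocc, which encodes rootletin of the ciliary rootlet. In Padi2 (140910784 to 140911106) levels were 11.3%, 37.6% and 62.1% in mutant replicates 1, 2 and 3, against 59.3%, 50.2% and 58.8% in the wild type. Replicate 1 was far below the wild type, whereas replicate 3 was above it. In Crocc (141025020 to 141025324) levels were 44.9%, 76.6% and 86.1% in the mutant, against 84.9%, 84.9% and 88.8% in the wild type. A further Crocc region (141030341 to 141031547) had 42.4%, 66.2% and 82.9% in the mutant, against 82.9%, 82.3% and 89.0% in the wild type. In both Crocc regions the genotypes met at mutant replicate 3. Of the 12 regions, 7 shared the order replicate 1, 2, 3 from low to high, which held in 46.6% of all mutant-variable regions and 39.2% of all candidate regions. In Igsf21, Arhgef10l, Epha2 and at Hspb7, named after their values were seen, replicate 3 was the lowest. The median mutant range over the 423 candidate regions of the stretch was 7.75 points.

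The other regions among the 12 with the widest ranges each had a different low sample. A region 108307 bp from Mc4r, the melanocortin receptor gene (chromosome 18, 66968794 to 66969324), had 58.6%, 10.6% and 23.3% in mutant replicates 1, 2 and 3, against 76.0%, 82.3% and 75.3% in the wild type. A region 3763 bp from Mapk6, a kinase gene (chromosome 9, 75382873 to 75383019), had 33.0%, 66.9% and 79.1% in the mutant, against 85.3%, 84.2% and 88.1% in the wild type. A region in 4930519G04Rik (chromosome 5, 114882596 to 114883559) had 65.3%, 62.0% and 22.8% in the mutant, against 81.2%, 80.3% and 71.9% in the wild type. The low replicate was 2, 1 and 3 in these regions, and the genotypes did not overlap in any of them.

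**Figure D5:**
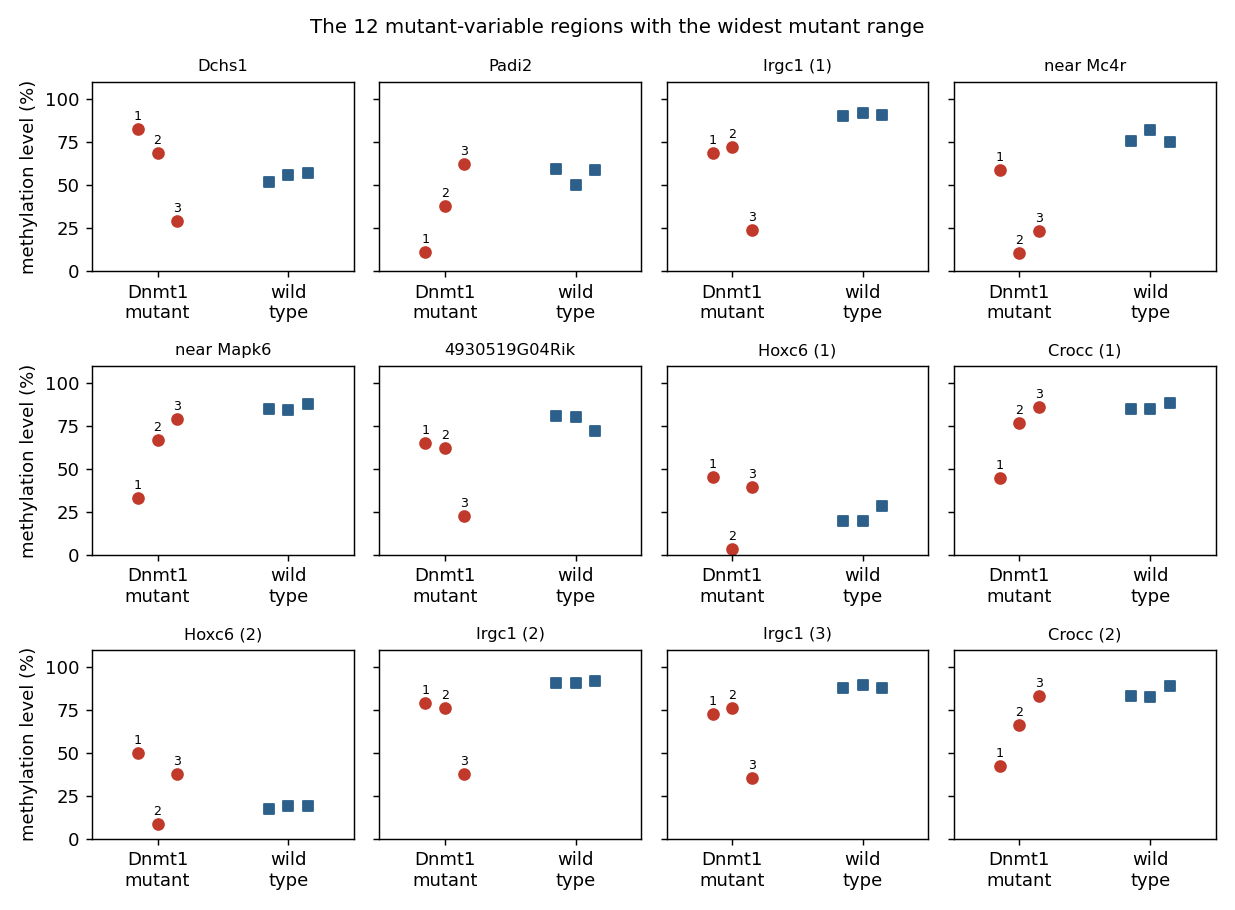
Methylation level in percent of the 12 regions with the widest mutant range, with mutant replicates as numbered circles on the left of each panel and wild-type replicates as squares on the right; numbers in brackets count regions of the same gene, in order of range. In Dchs1, Padi2 and Hoxc6 the mutant values lie on both sides of the wild type, and in Irgc1 replicate 3 is the low one in all 3 regions.

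For each mutant replicate and side, the clearest cases showed a single sample that differed from the other 5 or from its own genotype. In Osbpl6, an oxysterol-binding protein gene (chromosome 2, 76585995 to 76586391), replicate 1 stood high with 56.3%, against 22.2% and 22.1% in mutant replicates 2 and 3 and 79.6%, 78.9% and 72.9% in the wild type. In the potassium channel gene Kcnj6 (chromosome 16, 94798041 to 94798393), replicate 1 stood low with 47.8%, against 82.5% and 80.3% in the other mutant samples and 91.1%, 90.8% and 89.8% in the wild type. In Ppfia4 (chromosome 1, 134299172 to 134299244), replicate 2 had 40.4%, against 0.778% and 4.33% in mutant replicates 1 and 3 and 9.0%, 9.11% and 5.33% in the wild type. Ppfia4 was the region with the lowest wild-type mean, 7.81%, and replicate 2 was the single mutant or wild-type sample above 10%. A region 372472 bp from Csmd1 (chromosome 8, 15519855 to 15520066) had 35.8% in replicate 3, against 8.18% and 6.71% in mutant replicates 1 and 2 and 30.4%, 38.1% and 36.4% in the wild type. There replicate 3 was within the wild-type range. A region 29520 bp from Olig1 (chromosome 16, 91301459 to 91301998) had 82.9% in replicate 3, against 56.9% and 49.9% in mutant replicates 1 and 2 and 88.1%, 91.3% and 90.8% in the wild type. In the protocadherin alpha cluster (chromosome 18, 36975435 to 36975599) replicate 2 had 73.3%, against 41.3% and 45.8% in mutant replicates 1 and 3 and 67.0%, 74.3% and 65.7% in the wild type. Replicate 2 thus lay inside the wild-type range there, and the other mutant samples below it.

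At promoters, 18 of the 269 regions on chromosomes with promoter positions lay within 1 kb of a gene start (6.69%), against 6.45% of candidate regions. A further 52.8% overlapped protein-coding genes, against 64.1%, and 40.5% lay in neither place, against 29.5%. No enrichment test was made. The widest promoter range was at Tex19.1, a germline gene that guards against retrotransposons and is silenced by methylation in body tissues. Its promoter region (chromosome 11, 121145872 to 121146110) had 58.7%, 71.5% and 35.2% in mutant replicates 1, 2 and 3, against 88.3%, 92.7% and 90.9% in the wild type. The adjoining region (121146132 to 121146908) had 82.0%, 75.3% and 56.3% in the mutant, against 92.4%, 91.1% and 90.1% in the wild type. Replicate 3 was the low sample in both, and all mutant values lay below the wild type. The promoter region shared by Tex12, which encodes a component of the synaptonemal complex of meiosis, and Il18 (chromosome 9, 50560933 to 50561438) had 84.1%, 74.4% and 55.4% in the mutant, against 96.7%, 96.8% and 93.2% in the wild type. This region held 41 CpGs, replicate 3 was again the lowest, and the genotypes did not overlap.

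At the other promoters with the widest ranges, replicate 1 was the low sample in 5 of 6. Crocc (chromosome 4, 141053312 to 141054261) had 42.9%, 63.2% and 75.5% in mutant replicates 1, 2 and 3, against 81.5%, 83.2% and 84.3% in the wild type. The annotated start in this Crocc region lies inside the gene. Grip1, which encodes a scaffold of glutamate receptors (chromosome 10, 119819222 to 119819637), had 1.56%, 16.7% and 33.0% in the mutant, against 72.3%, 75.9% and 77.4% in the wild type. Replicate 1 was nearly unmethylated in this region of Grip1, and all mutant samples lay far below the wild type. Promoter regions of Spred3, Micos10 and the growth factor gene Bmp10 had ranges of 30.8, 29.1 and 28.8 points, with replicate 1 at 50.7%, 33.8% and 56.0%. At Nnat, an imprinted gene described below, replicate 2 was the lowest.

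The regions with the most CpGs were in Chst3, Irgc1, Dlk1, Tex12 and Il17d, among the 204 regions for which the authors gave a number. Chst3, a sulfotransferase gene (chromosome 10, 60185705 to 60186779), held 61 CpGs and had 49.2%, 31.9% and 18.9% in mutant replicates 1, 2 and 3, against 75.4%, 76.1% and 79.5% in the wild type. Il17d, a cytokine gene (chromosome 14, 57542123 to 57542654), held 40 CpGs and had 37.7%, 29.4% and 11.3% in the mutant, against 77.0%, 75.8% and 80.9% in the wild type. Replicate 3 was the lowest in all 5 of these, although it was the highest of the mutant columns over all candidate regions. These 5 were picked for their CpG number, which the rule did not use, but from regions that the rule chose by these same levels. Mutant replicate 3 was the lowest in 44 of the 204 listed mutant-variable regions (21.6%), against 14.6% of all listed hypomethylated regions. No test is given for the 5. A further region with 37 CpGs, in Wnt3a, had its low value in replicate 1 at 33.4%, and was named after its value was seen.

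Listed mutant-variable regions were shorter and denser in CpGs than listed regions as a whole. Their median length was 478 bp, against 720 bp over all listed hypomethylated regions, with medians of 11.5 and 12 CpGs and of 2.83 and 1.78 CpGs per 100 bp. Over all candidate regions the share that met the rule was 0.507% under 200 bp, 0.473% at 200 to 400 bp, 0.258% at 400 to 800 bp and 0.145% at 800 to 1600 bp. CpG numbers were given for listed regions only, so shares by CpG number cannot be set beside the 0.260% of all candidate regions. Among listed regions the share was 0.636% with 10 or 11 CpGs and 0.552% with 30 or more. In the bins that start at 12, 15 and 20 CpGs it was 0.488%, 0.630% and 0.431%. The part that length and the unknown coverage play in the range was not tested.

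Of the 279 regions, 19 (6.81%) had another mutant-variable region within 10 kb, in 9 runs. A candidate region that was not mutant-variable lay within 5 kb of 192 of them. In the nearest such region, the mutant column that stood apart deviated from the other mutant columns in the same direction in 119 of 192 (62.0%), after the median offset of that column was removed. The deviation there had a median of 1.34 points in the direction of the mutant-variable region, against 21.2 points in the regions themselves. It reached 5 points or more in the same direction in 51 and in the opposite direction in 21. These nearest regions were picked among those that failed the rule, so their smaller deviation was largely set in advance. The share in the same direction was not computed for other neighbouring candidate regions. Across the 192 pairs Pearson's r was 0.373, a description over pairs that share libraries and are not independent. 

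In 8 of the 9 runs the same mutant replicate was the lowest in every mutant-variable region, and Tspan18 was the exception. Each run held 2 such regions, except the 3 of Irgc1. Over all 279 regions replicate 1 was the lowest in 174, replicate 2 in 52 and replicate 3 in 53, so regions far apart often share their lowest replicate too. How often they do was not computed, so nothing is read from the count of runs. In Tspan18, a tetraspanin gene, the region at chromosome 2, 93319002 to 93319450, had 48.5%, 34.5% and 21.9% in mutant replicates 1, 2 and 3, against 82.3%, 87.2% and 80.1% in the wild type. The next region (93320120 to 93320489) had 39.5%, 66.1% and 56.9% in the mutant, against 86.1%, 79.3% and 85.8% in the wild type. Replicate 3 was the lowest in the first and replicate 1 in the second. In Begain (chromosome 12, 109034269 to 109039131) both regions had replicate 3 lowest, with 74.2%, 69.5% and 48.6% in the mutant, against 91.1%, 93.2% and 91.8% in the wild type in the first of them. A wider stretch of chromosome 12 from 108049542 to 109460549 held 7 mutant-variable regions among 202 candidate regions, at gaps of up to 500 kb. Its ends and this gap were set with the data known. The order 3, 2, 1 from low to high held in 5, against 13.6% of all mutant-variable regions and 5.13% of all candidate regions.

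Imprinted genes, which carry methylation on a single parental allele at their control regions, held 4 mutant-variable regions at 5 of 29 list members. That is 2.03% of their 197 candidate regions, against 0.260% of all candidate regions. The list and the regions were both drawn up with results of these data known, and no test is given. In Dlk1, which encodes a growth regulator of the Notch ligand family (chromosome 12, 109459524 to 109460549), levels were 58.4%, 55.3% and 33.1% in mutant replicates 1, 2 and 3, against 81.9%, 85.8% and 83.4% in the wild type. At the promoter of Nnat, a gene expressed from the paternal allele that lies within an intron of Blcap (chromosome 2, 157560394 to 157560562), levels were 70.6%, 40.6% and 49.2% in the mutant, against 66.7%, 64.3% and 61.9% in the wild type. In Grb10, a growth inhibitor gene (chromosome 11, 12025911 to 12025975), levels were 44.6%, 28.3% and 60.6% in the mutant, against 63.2%, 62.2% and 58.4% in the wild type. In Gnas, which also overlaps the antisense gene Nespas (chromosome 2, 174300010 to 174300155), levels were 72.2%, 56.6% and 42.1% in the mutant, against 54.6%, 60.5% and 59.5% in the wild type. Wild-type levels at Nnat, Grb10 and Gnas were intermediate, at 54.6% to 66.7%, and at least 1 mutant sample was within or above the wild-type range in each of these 3. In Dlk1 all mutant samples lay below the wild type.

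Of the remaining lists, 3 held mutant-variable regions, in counts of 1 or 2, and no test is given for these either. The germline list had 2 among 63 candidate regions (3.17%, against 0.260% of all candidate regions), both at Tex19.1. The Hox and developmental list had 1 among 118 (0.847%), near the start of Hoxa5 within Hoxa3 (chromosome 6, 52204656 to 52204841), with 51.7%, 79.9% and 71.9% in mutant replicates 1, 2 and 3, against 80.9%, 81.1% and 88.8% in the wild type. The 2 regions of Hoxc6 did not count, since Hoxc6 was not a list member. Genes beside retrotransposon copies of variable methylation had 1 among 67 (1.49%), within 5 kb of Pink1, a mitochondrial kinase gene (chromosome 4, 138311672 to 138312036), with 59.3%, 71.8% and 88.0% in the mutant, against 88.9%, 86.0% and 86.0% in the wild type. Mutant replicate 3 was within the wild-type range there. Whether these regions lie on retrotransposons was not analysed here.

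Genes of the blood lineages held none. Lymphoid priming and B lineage genes had 0 among 240 candidate regions, T and NK lineage genes 0 among 154, granulocyte and monocyte genes 0 among 73, erythroid and megakaryocyte genes 0 among 121, and stem and multipotent progenitor genes 0 among 232. Counted once each, the 5 lists held 820 candidate regions, in which the share over all candidate regions, 0.260%, would give 2.14. A count of 0 is near that number and says little. Their median mutant range was 6.90 points, against 7.11 over all candidate regions, and the widest was 24.3. The DNA methylation and silencing machinery had 0 among 151 and the stromal and endothelial list, which marks other cells of the marrow, 0 among 79. At Dnmt1 itself, counting 5 kb on either side, 28 candidate regions had mutant ranges between 2.08 and 12.3 points and 0 were mutant-variable.

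By chromosome, the regions lay on all 19 autosomes. Chromosome 4 held 32 (11.5%), against 8.35% of candidate regions, chromosome 12 held 15 (5.38%), against 4.03%, and chromosome 16 held 13 (4.66%), against 2.90%. Chromosome 15 held 7 (2.51%), against 5.20%. Chromosomes X and Y held 0 among 92 and 26 candidate regions. At the share of 0.260% over all candidate regions, so few regions make a count of 0 say little. Nor does it mean that these chromosomes did not vary. Of the 32 regions with a range at or above the mutant limit in both genotypes, 7 lay on X and 1 on Y. The wild-type limit kept these out, and the sex of the samples was not stated by the sources used here. The stretch around Padi2 and Crocc supplied 12 of the 32 on chromosome 4.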

How the data were processed

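Methylation of lineage-negative progenitors was sequenced in paired-end mode with 100 bp reads in 12 libraries, per the labels. The authors deposited a methylation level per candidate region as a fraction between 0 and 1 in 6 columns, on mm10 per the submitters' processing notes, with regions called by metilene per the file names. Not given in the sources used here are the aligner, the methylation caller and whether each column merges both kits. The deposited lists give CpG counts per region, a mean fraction per genotype, a difference of fractions as a score, and metilene q-values and adjusted p-values of a further unnamed test. Listed regions had at least 10 CpGs and 20 points of difference. Levels were multiplied to percent, and no coverage minimum could be applied.

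Columns were assigned to genotype by the labels. The rule was applied to the columns as deposited. Each candidate region was fitted with limma 3.58.1 in R 4.3.3, two-sided, with Benjamini-Hochberg adjustment over all regions. Gene spans and starts came from RefSeq tables of GRCm38.p6, the same assembly as mm10; 17492 of 21900 protein-coding genes had a start, and none on chromosome 18. List genes counted within their span plus 5 kb. Named regions were the 12 widest, the 8 widest at promoters, the 5 with the most CpGs, the longest runs, list members and the 2 clearest per mutant column and side. The members, lists and rule were chosen with earlier results of these data known. Ranges and counts were computed in Python 3.11.15 with pandas 2.3.3 and numpy 2.4.6, and figures drawn with matplotlib 3.10.9. The limma step was tested on simulated data. Alternative limits, transformations, left-out replicates and a replicate block were tried, and 2 alternatives were added after the data were seen.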

Additional observations from a re-analysis of the deposited data

How the results depend on the processing

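The number of mutant-variable regions depended on the limits: it was 1293 with a mutant limit of 20 points, 67 with 30 points, 105 with a wild-type limit of 5 points and, as an alternative chosen after seeing the data, 165 when only regions of at least 400 bp counted. Leaving out a replicate gave 63 to 348. Without mutant replicate 1, 63 regions met the rule, without mutant replicate 3 it was 66 and without mutant replicate 2 it was 180; fewer columns have a smaller range by construction. Over the same 279 regions, not chosen anew, the mean difference stayed between -29.2 and -23.1 points when a replicate was left out. Replicate 2 stood apart in 19% of the same 279 regions with columns centred, against 14.0%. It stood apart in 9.09% of those whose larger gap was at least 2 times the smaller. At a mutant limit of 30 points, 60.3% lay in gene bodies and 31.7% in neither place. With gaps of up to 500 kb, also chosen after seeing the data, 82 regions lay in runs. limma called 82 candidate regions higher with a mean-dependent prior, and 30 to 63 when a replicate was left out, the lowest without wild-type replicate 1. Among the same 279 regions it called 1 higher on a logit scale, and 0 to 4 when a replicate was left out. The cause was not tested. Of the same 279 regions, limma called 210 to 252 lower when a replicate was left out. With the replicate number as a block, limma called 260 mutant-variable regions lower and 2 higher, and 99903 and 70 candidate regions. The deviations of same-numbered columns had correlations of 0.0372, 0.00489 and 0.05, and those of differently numbered columns -0.0507 to 0.0117. Each mutant replicate correlated best with the wild-type replicate of its own number, whereas wild-type replicate 2 correlated best with mutant replicate 1 (0.0117). All these values are small, and whether the numbers pair the samples cannot be told from them. The depth behind each level is unknown and limits every range given here.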
